A study of Danio rerio with 12 samples.

Results

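The genes described here belong to the circadian clock and its direct outputs: nr1d1, nr1d2b, hlfb, per1a, per1b, per2, per3 and clocka. They were measured in gills of adult zebrafish (Danio rerio) and were found by mapping the RefSeq accession of each array probe to a gene symbol. All 8 genes lay on the array, among 13443 genes with a named probe, and all 8 passed the filter on low signals that 12616 genes passed. They had 15 probes, of which 11 were tested. For each gene the probe of highest mean signal was used.

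There were 12 pools of gills, 3 in each of 4 groups, and each pool came from 10 fish. Controls were kept in water without particles, and the labels give 96 h for them as for the other groups. The other fish spent 96 h in water with CuO nanoparticles at 0.2 mg/L, ZnO nanoparticles at 4.8 mg/L or NiO nanoparticles at 17.5 mg/L. Fish were unfed during the exposure. Each dose was 1/10 of the concentration that killed 50% of fish, per the series' design text. Lights were on for 16 h and off for 8 h. Each group was sampled at 1 time only, and the hour of sampling is not given in the sources used here, so no daily course was measured. Whether all groups were sampled at the same hour is thus not known. A different hour by group could not be told apart from a change of phase.

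In the vertebrate clock, CLOCK and BMAL proteins bind E-boxes and switch on the period (per) and cryptochrome (cry) genes, whose proteins then hold CLOCK and BMAL back. A second loop runs through nuclear receptors: the REV-ERB proteins, which nr1d1 and nr1d2b encode, repress bmal genes, and the ROR proteins activate them. PAR bZIP factors such as Hlf, Dbp and Tef carry the rhythm to output genes through D-boxes, which the Nfil3 repressors also bind. Zebrafish tissues, gill among them, keep their own clocks and sense light directly. In other zebrafish tissues per1a, per1b, per3, the nr1d genes and the PAR bZIP genes peak around dawn, clock and bmal genes peak around dusk, and per2 and cry1a are driven by light. A shift of phase would therefore be expected to move the dawn genes one way and the dusk genes the other at a fixed hour.

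Levels are log2 of the processed signal, each less its array's 75th percentile, and levels of different genes are not compared because each probe has its own efficiency. Differences are exposed minus control on the log2 scale. A gene is said to have risen or fallen where limma's p-value, adjusted by the Benjamini-Hochberg method over all genes tested, was under 0.05. The 75th percentile of the signal ran from 1390 to 3319 across arrays, and 75.5% to 88.4% of spots were well above background. Across genes, pairs of arrays in 1 group had r = 0.820 to 0.967. The median SD of a gene within a group was 0.51, and with 3 arrays a group the number of arrays limits the precision. The median gene lay 0.42 above control under CuO, 0.32 under ZnO and 0.27 under NiO. Replicate 1 of every group lay on 1 slide, as did replicates 2 and 3, and each group kept the same position on each slide, so position and group cannot be told apart.

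RNA of tissues other than gill epithelium differed between the arrays. The median of 21 oocyte markers lay at 3.91 to 3.99 on the controls and at 2.37 on NiO 1, but between -5.59 and -3.30 on the other 8 arrays. The median of 26 eye markers lay between -5.57 and -4.58 on control 3, CuO 3, ZnO 1 and NiO 2, and between 0.06 and 1.98 on the others. Of 18 gill markers 15 were tested, and their median ran from -3.53 to -1.82 on the controls and from -1.48 to 0.94 on exposed arrays. Of these markers, foxi3b and slc12a10.2 passed the filter on low signals only through exposed groups where they were higher. The medians and counts that hold them are therefore descriptions. Among the 15 gill markers rhbg, an ammonia transporter, krt4, a keratin of surface epithelium, and ca4a, a carbonic anhydrase, rose under all 3 particles. Of the 15 markers tested, 3 rose under CuO, 4 under ZnO and 3 under NiO, and 0 fell. Of all genes 11.4%, 13.8% and 10.1% rose. Lower than in controls were 1, 2 and 2 markers, hvcn1 each time. Its means were 1.58, 1.51 and 1.02 against 1.95 on the controls. In pooled tissue, fewer cells of a type and less RNA per cell cannot be told apart. The deposited table of the whole series and the scanner files name the arrays differently: 10 of the table's 12 columns hold what the files link to a different sample. By these links the table's columns hold the arrays in order of slide and then of position on the slide. The files do not state which naming is right. Values here take the link of each scanner file to its sample as given. Every difference between groups rests on that link, as does the shared slide position of each group.

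Most of the calls among the 8 clock genes fell to the REV-ERB genes. Both nr1d1 and nr1d2b rose under all 3 particles, hlfb rose under NiO and clocka rose under CuO, while no per gene rose or fell. This made 3 of 8 genes risen under CuO, 2 under ZnO and 3 under NiO, and 0 fell. Of all genes tested, 25.1% were called under CuO (11.4% rose and 13.7% fell), 25.7% under ZnO (13.8% rose and 11.9% fell) and 22.2% under NiO (10.1% rose and 12.1% fell). Of the 8 genes, 4, 3 and 3 were higher and 0 were lower at an unadjusted p under 0.05. Over all genes 40.2%, 39.3% and 36.6% had such a p in either direction, so these counts lay near that share. The median difference over the 8 genes was 1.17 under CuO, 0.78 under ZnO and 1.05 under NiO. Of the 8, hlfb passed the filter on low signals only through ZnO and NiO, and per1a only through CuO. Each was higher there than in controls, so the counts and medians that hold them are descriptions.

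**Figure D1:**
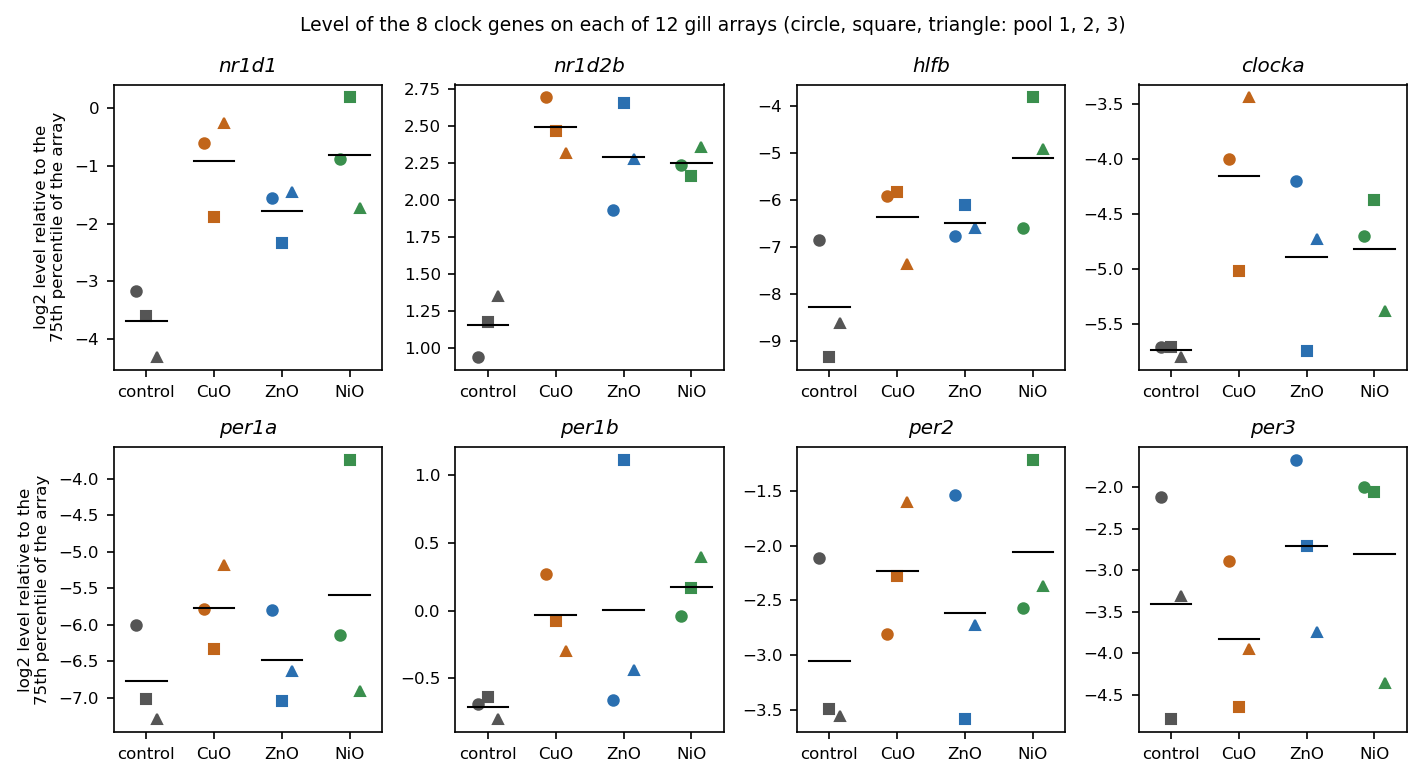
Level of each of the 8 clock genes on each of the 12 arrays (y axis, log2 signal less the array's 75th percentile), by group (x axis), with points for arrays and horizontal lines for group means. The exposed arrays of nr1d1 and nr1d2b all sit above the 3 controls, whereas those of per2 and per3 overlap them.

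The gene nr1d1 encodes Rev-erb alpha, the repressor that ties the nuclear receptor loop to the core clock. Its level was -3.17, -3.60 and -4.32 on control 1, 2 and 3. It was -0.60, -1.89 and -0.25 under CuO, -1.56, -2.33 and -1.46 under ZnO, and -0.89, 0.19 and -1.72 under NiO. Every exposed array lay above every control, and the signal was well above background on all 12 arrays. Under CuO the rise was 2.79 ± 0.57 (SE, n = 3 against 3; 6.90-fold; limma adjusted p = 0.00733), and under NiO it was 2.89 ± 0.57 (7.42-fold; limma adjusted p = 0.00935). Both calls held with each array left out in turn. Under ZnO the rise was 1.92 ± 0.57 (3.78-fold; limma adjusted p = 0.0342). That call was lost without control 2 (1.96), control 3 (1.61), ZnO 1 (1.80), ZnO 2 (2.19) or ZnO 3 (1.76), and with the slide as a block (1.92, limma adjusted p = 0.0565). Within slides 1, 2 and 3 the ZnO difference was 1.62, 1.28 and 2.86. The CuO difference was 2.57, 1.72 and 4.07, and the NiO difference 2.29, 3.79 and 2.60, so nr1d1 was higher than the control of the same slide in 9 of 9 cases.

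The gene nr1d2b encodes a Rev-erb beta, a second repressor of the same kind. Its level was 0.94, 1.18 and 1.36 on the controls. It was 2.70, 2.47 and 2.32 under CuO, 1.94, 2.66 and 2.28 under ZnO, and 2.24, 2.17 and 2.36 under NiO. The groups did not overlap, and the exposed groups lay close to each other. The rise was 1.34 ± 0.26 under CuO (2.52-fold; limma adjusted p = 0.00577), 1.13 ± 0.26 under ZnO (2.19-fold; limma adjusted p = 0.0123) and 1.097 ± 0.26 under NiO (2.14-fold; limma adjusted p = 0.0166). The CuO and ZnO calls held with each array left out in turn, and the NiO call was lost without control 1 (0.99) or NiO 3 (1.04). Within slides the differences ran from 0.92 to 1.76 and were positive in 9 of 9 cases.

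A further 4 genes of the nuclear receptor loop were tested, of the 10 listed. Among them rorab, an ROR activator of bmal genes in the vertebrate clock, rose under CuO (1.74 ± 0.42, limma adjusted p = 0.0143) and NiO (1.504 ± 0.42, limma adjusted p = 0.0296) and was 1.25 higher under ZnO (limma adjusted p = 0.0513). The CuO call was lost without control 3 (1.59), CuO 1 (1.46) or CuO 2 (1.63), and the NiO call without control 1 (1.51), control 3 (1.36), NiO 1 (1.47), NiO 2 (1.61) or NiO 3 (1.43). Repressor and activator genes of this loop were thus both higher on the exposed arrays. The others, nr1d2a, nr1d4a and roraa, were higher by 0.04 to 2.09 and were not called. The 2.09 was that of nr1d4a under CuO, well above background on 2 control, 3 CuO, 2 ZnO and 1 NiO arrays. It passed the filter on low signals only through CuO, so loop medians that hold nr1d4a are descriptions. With nr1d1 and nr1d2b the loop had 3, 2 and 3 of 6 genes risen under CuO, ZnO and NiO, 0 fallen, and medians of 1.68, 1.201 and 1.30, against 11.4%, 13.8% and 10.1% risen and medians of 0.42, 0.32 and 0.27 over all genes.

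The gene hlfb encodes a PAR bZIP activator of D-box genes. Its level was -6.86, -9.35 and -8.62 on the controls. It was -5.91, -5.85 and -7.36 under CuO, -6.78, -6.12 and -6.60 under ZnO, and -6.61, -3.83 and -4.93 under NiO. The signal was dim: it was well above background on 1 of 3 control arrays, 2 of 3 CuO arrays and all ZnO and NiO arrays. The gene passed the filter on low signals only through the ZnO and NiO groups, where it was higher than in controls, so its NiO call is a description and no support for a rise of the clock genes. Under NiO it rose by 3.15 ± 0.79 (limma adjusted p = 0.0196) against controls mostly near background, and the call was lost without control 2 (2.62), control 3 (2.98), NiO 2 (2.504) or NiO 3 (3.06). Under CuO the difference was 1.90 ± 0.79 (limma adjusted p = 0.0994), and without control 1 it was called (2.61). Under ZnO the difference was 1.78 ± 0.79 (limma adjusted p = 0.121). Within slide 1 hlfb was only 0.95, 0.08 and 0.25 above the control under CuO, ZnO and NiO, against 3.50, 3.23 and 5.52 within slide 2.

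The PAR bZIP and nfil3 genes had 10 members tested of 11 listed, hlfb included. Under CuO 2 rose, under ZnO 2 and under NiO 4, and 0 fell (3, 5 and 5 higher and 0 lower at an unadjusted p under 0.05), where 11.4%, 13.8% and 10.1% of all genes rose. An unadjusted p under 0.05 was found for 40.2%, 39.3% and 36.6% of all genes, in either direction. The median difference of the 10 was 0.78, 1.32 and 1.06, against 0.42, 0.32 and 0.27 for all genes. The NiO count and the medians include hlfb, which passed the filter on low signals only through groups where it was higher. The nfil3-5 gene, of the D-box repressor family, rose by 1.35 under CuO, 1.41 under ZnO and 1.27 under NiO (SE 0.32; limma adjusted p = 0.0131, 0.0119 and 0.0201). Its ZnO call held with each array left out, its CuO call was lost without CuO 1 (1.16), and its NiO call without control 1 (1.21), control 3 (1.28) or NiO 3 (1.16). The activator gene dbpa rose under CuO (2.17) and NiO (1.97), nfil3 rose under ZnO (1.72) and nfil3-6 under NiO (1.69). Each of these 4 calls was lost with some single arrays left out. For dbpa these were control 1 (1.88), control 3 (2.01), CuO 1 (1.92) or CuO 2 (2.00) under CuO, and control 1 (1.68), control 3 (1.81), NiO 1 (1.76) or NiO 3 (1.90) under NiO. With the slide as a block the NiO difference of dbpa (1.97) had limma adjusted p = 0.0545. For nfil3 they were control 1 (1.60), control 3 (1.49) or ZnO 2 (1.53), and for nfil3-6 control 1 (1.47), control 3 (1.68), NiO 2 (1.33) or NiO 3 (1.88). Activators and repressors of D-box genes were therefore both among the risen genes. The paralogue hlfa differed by -0.39, -0.97 and -0.04 and was not called.

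The gene clocka encodes a Clock protein, the partner of Bmal in the activating complex. Its level was -5.70, -5.71 and -5.80 on the controls, within 0.10 of each other. It was -3.999, -5.02 and -3.44 under CuO, -4.20, -5.74 and -4.73 under ZnO, and -4.70, -4.38 and -5.38 under NiO. All CuO and NiO arrays lay above the controls, and ZnO 2 lay among them. Under CuO it rose by 1.58 ± 0.49 (2.99-fold; limma adjusted p = 0.0381). That call was lost without control 1 (1.60), control 2 (1.60), control 3 (1.55), CuO 1 (1.503), CuO 3 (1.23), ZnO 3 (1.58) or NiO 1 (1.58), and with the slide as a block (1.58, limma adjusted p = 0.0503). The difference was 0.85 under ZnO (limma adjusted p = 0.226) and 0.92 under NiO (limma adjusted p = 0.201).

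**Figure D2:**
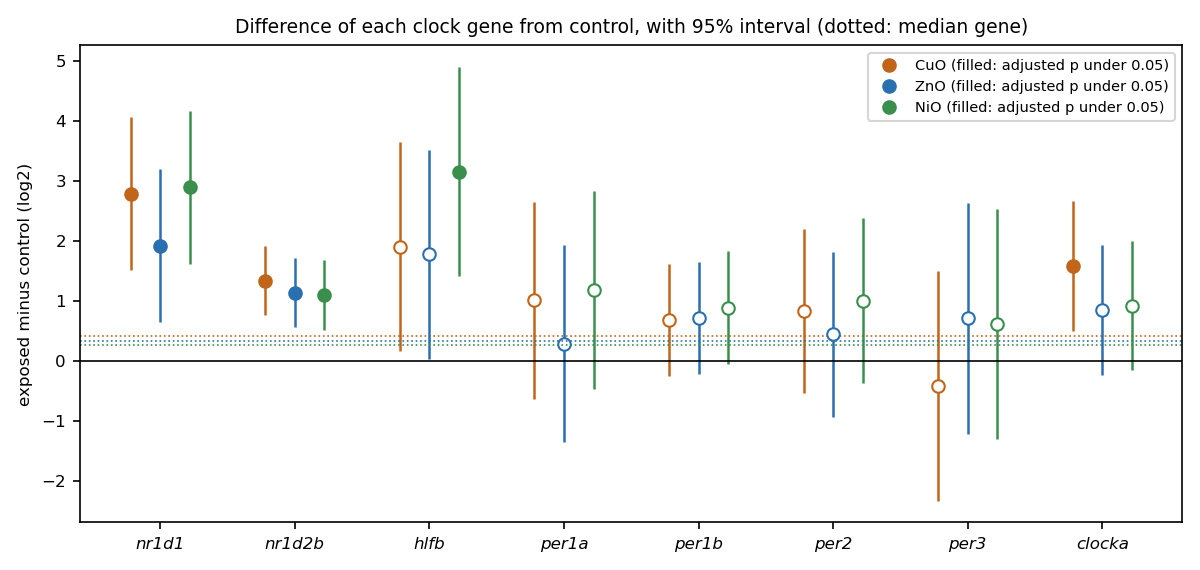
Difference of each of the 8 clock genes from control (y axis, log2, exposed minus control) under each particle, with the 95% interval of limma; filled points have an adjusted p under 0.05 and dotted lines mark the median gene. The intervals of nr1d1 and nr1d2b lie above 0 under each particle, and those of the 4 per genes include 0.

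The period genes encode the negative limb, and 0 of 4 were called under any particle (0 at an unadjusted p under 0.05 as well). Over all genes 40.2%, 39.3% and 36.6% had an unadjusted p under 0.05 under CuO, ZnO and NiO. The gene per1b, an E-box target that peaks around dawn, varied little between control pools. Its level was -0.69, -0.63 and -0.80 on the controls, 0.27, -0.07 and -0.30 under CuO, -0.66, 1.12 and -0.44 under ZnO, and -0.04, 0.17 and 0.40 under NiO. The CuO and NiO arrays all lay above the controls, and ZnO 1 lay among them. Its differences were 0.68 (95% interval -0.26 to 1.62), 0.71 (-0.23 to 1.65) and 0.89 (-0.05 to 1.83). Without ZnO 2, where its level was the highest of the 12 arrays, the spread was smaller and the NiO difference of 0.89 was called (limma adjusted p = 0.0309).

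The other per genes varied more between pools of a group. The gene per1a was at -6.01, -7.02 and -7.30 on the controls, -5.79, -6.33 and -5.19 under CuO, -5.80, -7.04 and -6.63 under ZnO, and -6.14, -3.74 and -6.91 under NiO, and was well above background on 9 of 12 arrays. NiO 2 lay far above the other arrays of its group. The light-driven gene per2 was at -2.11, -3.49 and -3.56 on the controls, -2.81, -2.28 and -1.60 under CuO, -1.53, -3.59 and -2.72 under ZnO, and -2.57, -1.21 and -2.37 under NiO. The gene per3, a dawn gene in zebrafish, was at -2.12, -4.79 and -3.31 on the controls, -2.89, -4.64 and -3.95 under CuO, -1.67, -2.70 and -3.74 under ZnO, and -1.999, -2.06 and -4.35 under NiO. All 3 genes overlapped their controls under every particle. Under CuO, ZnO and NiO the differences were 1.01, 0.28 and 1.18 for per1a, 0.83, 0.44 and 1.00 for per2, and -0.42, 0.70 and 0.61 for per3. Their 95% intervals were wide: -0.64 to 2.65, -1.36 to 1.93 and -0.47 to 2.83 for per1a, -0.55 to 2.20, -0.94 to 1.81 and -0.37 to 2.37 for per2, and -2.34 to 1.503, -1.22 to 2.62 and -1.31 to 2.53 for per3. A change as large as that of nr1d2b thus lay within the interval of each of these 3 genes.

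Counting arrays that did not overlap the controls, 4 of the 8 genes were higher on all 3 CuO arrays, 3 on all ZnO arrays and 5 on all NiO arrays, and 0 were lower. Of all genes 48.2%, 42.8% and 42.5% did not overlap under CuO, ZnO and NiO, with 27.4%, 25.6% and 22.9% higher and 20.8%, 17.2% and 19.7% lower. With the 3 exposures averaged, nr1d1 (2.53), nr1d2b (1.19) and hlfb (2.28) rose and clocka had limma adjusted p = 0.0513, where 35.2% of genes were called, 19.1% rising and 16.1% falling. These ZnO and NiO counts and this average include hlfb, which passed the filter on low signals only through groups where it was higher. An F test over the 4 groups called nr1d1 (adjusted p = 0.0163) and nr1d2b (adjusted p = 0.0167), where it called 20.9% of genes.

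To ask whether the genes moved as a change of phase would, clock genes were grouped by their known time of peak. Of 18 dawn genes, bhlhe40 and bhlhe41 among them, 15 were tested: 3 rose under CuO, 4 under ZnO and 5 under NiO, and 0 fell (6, 6 and 7 higher and 0 lower at an unadjusted p under 0.05). An unadjusted p under 0.05 was found for 40.2%, 39.3% and 36.6% of all genes, in either direction. Of all genes 11.4%, 13.8% and 10.1% rose. The median difference of the dawn genes was 1.01, 1.13 and 1.04, against 0.42, 0.32 and 0.27 for all genes. The NiO count includes hlfb. As hlfb, per1a and nr1d4a passed the filter on low signals only through exposed groups where they were higher, these counts and medians are descriptions. Of the 5 dusk genes, clocka rose under CuO and bmal2 fell under ZnO, and under NiO 0 were called (1 lower at an unadjusted p under 0.05). Of all genes 13.7%, 11.9% and 12.1% fell under CuO, ZnO and NiO. The dusk median was 0.61, -0.57 and -0.25, so it lay below the dawn median under each particle, but bmal2 was the 1 gene of both arms that fell, with 1 of 3 ZnO arrays well above background, and clocka, a dusk gene, rose as dawn genes did. The 2 arms were not tested against each other.

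**Figure D3:**
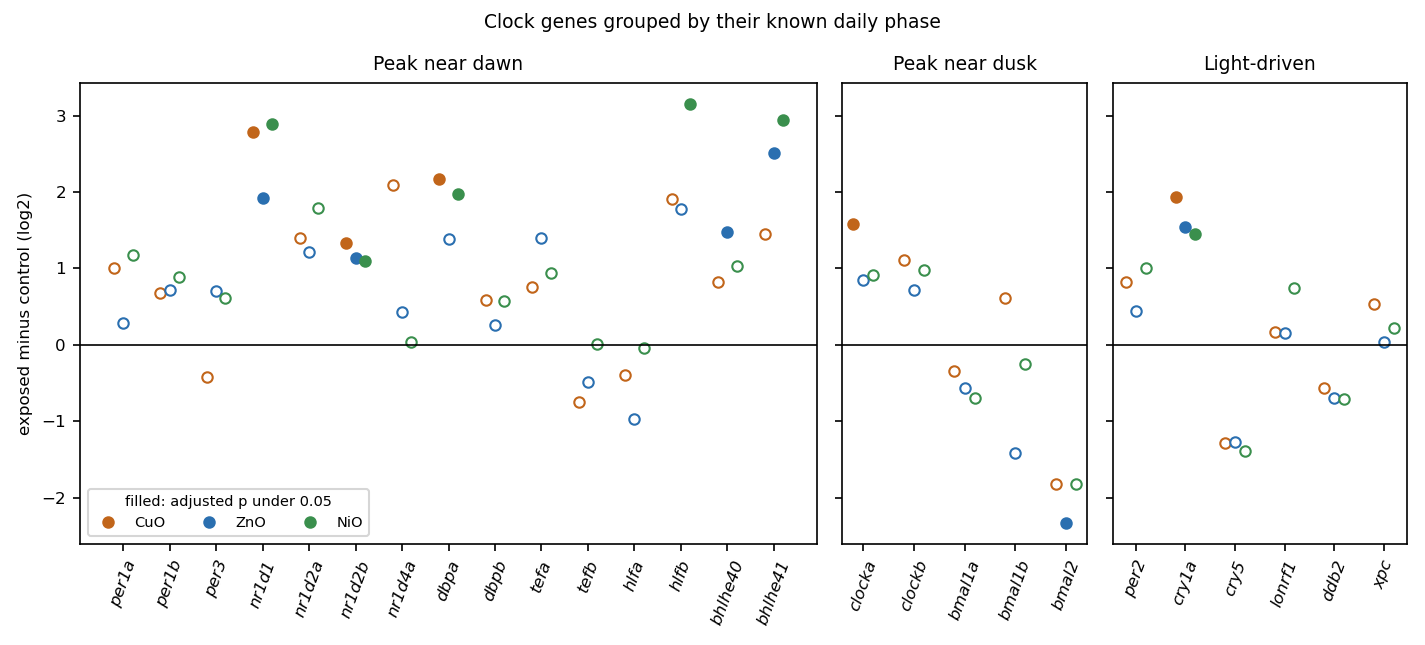
Difference from control (y axis, log2) of the tested clock genes that peak near dawn, peak near dusk or follow light in zebrafish (x axis), under CuO, ZnO and NiO; filled points have an adjusted p under 0.05. Filled dawn points are all above 0, while the dusk genes split between clocka above 0 and bmal2 below it.

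The bmal genes encode the partners of Clock and are repressed by Rev-erb proteins in the vertebrate clock. The level of bmal2 was -3.96, -5.46 and -4.90 on the controls, -6.72, -7.19 and -5.86 under CuO, -6.10, -8.10 and -7.09 under ZnO, and -6.34, -5.89 and -7.57 under NiO. Every exposed array lay below every control. It was well above background on 3 of 3 control and CuO arrays, 2 of 3 NiO arrays and 1 of 3 ZnO arrays, so its level under ZnO lay mostly near background and the size of the fall there is uncertain. Under ZnO it fell by 2.33 (SE 0.63; limma adjusted p = 0.0243). The call was lost without control 1 (-1.92), control 3 (-2.39), ZnO 2 (-1.82) or ZnO 3 (-2.33). Its difference was -1.82 under CuO (limma adjusted p = 0.0604) and -1.82 under NiO (limma adjusted p = 0.0642), and both were called without ZnO 1 or ZnO 2, which changes the estimate of the spread but not the differences (-1.82 and -1.82). The level of bmal1a was 1.44, 1.67 and 1.55 on the controls, 1.62, 1.22 and 0.80 under CuO, 0.94, 1.13 and 0.89 under ZnO, and 1.12, 0.24 and 1.22 under NiO. It was lower on all ZnO and NiO arrays, but its differences of -0.34, -0.57 and -0.69 were not called. For bmal1b the differences were 0.61, -1.42 and -0.25, and for clockb 1.11, 0.72 and 0.98, with 0 called. In the mean of the 3 exposures bmal2 fell by 1.99 and the other 2 bmal genes were not called.

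Of 8 cryptochrome genes tested, 1 rose under each particle and 0 fell, near the 11.4%, 13.8% and 10.1% of all genes that rose under CuO, ZnO and NiO. The risen gene was cry1a, a light-driven repressor of Clock and Bmal in zebrafish. Its level was -0.52, -0.15 and -0.89 on the controls, 1.91, 1.25 and 1.07 under CuO, 0.71, 1.88 and 0.50 under ZnO, and 0.96, 0.55 and 1.28 under NiO, with no overlap. Under CuO it rose by 1.93 ± 0.41 (3.81-fold; limma adjusted p = 0.00865), and the call held with each array left out. Under ZnO the rise was 1.55 (limma adjusted p = 0.0224), and leaving out control 1 (1.55), control 3 (1.36) or ZnO 2 (1.12) ended the call. Under NiO the rise was 1.45 (limma adjusted p = 0.0321), and the call ended without control 1 (1.45), control 3 (1.26), NiO 1 (1.43) or NiO 3 (1.27). A second probe of cry1a, also well above background on 12 arrays, differed by 1.37, 0.80 and 1.13 under CuO, ZnO and NiO. It was not called (limma adjusted p over all probes = 0.0580, 0.248 and 0.118), and on ZnO 3 (-1.39) it lay among the controls.

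The light-inducible photolyase gene cry5 lay the other way. Its differences of -1.28, -1.27 and -1.38 under CuO, ZnO and NiO were not called (limma adjusted p = 0.0679, 0.0684 and 0.0566), although all exposed arrays lay below the controls. Without ZnO 2 its CuO (-1.28) and NiO (-1.38) differences were called, and in the mean of the 3 exposures it fell by 1.31. The differences of cry1b (-0.84, -1.04 and -0.60), cry2 (0.11, -0.04 and 0.45), cry3a (0.41, -0.27 and 0.06), cry3b (0.34, -0.90 and -0.68), cry4 (0.02, -0.03 and -0.06) and cry-dash (-0.18, 0.17 and 0.13) were not called either. Of 6 light-driven genes tested, cry1a alone was called under any single particle by the probe used for the gene, and per2, which light induces together with cry1a in zebrafish cells, was not. Under CuO, ZnO and NiO 25.1%, 25.7% and 22.2% of all genes were called.

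The bHLH repressors bhlhe40 and bhlhe41, which compete for E-boxes, rose under ZnO by 1.48 and 2.51 (limma adjusted p = 0.0127 and 0.0247), and bhlhe41 rose under NiO by 2.94 (limma adjusted p = 0.0158). The bhlhe40 call was lost without control 3 (1.42). A second probe of bhlhe40, also well above background on 12 arrays, differed by 1.08 ± 1.25 (SE) under ZnO. It was not called (limma adjusted p over all probes = 0.580). The ZnO call of bhlhe41 was lost without control 1 (2.57), control 3 (2.13), ZnO 2 (2.33) or ZnO 3 (2.51), and its NiO call without control 3 (2.55). Under CuO they were 0.82 and 1.45 higher and were not called. By a second probe bhlhe41 also rose under ZnO (2.53) and NiO (2.94; limma adjusted p over all probes = 0.0233 and 0.0167).

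Genes for enzymes that set the stability of clock proteins gave several calls that held with each array left out in turn. Of 8 kinase and ligase genes tested, 3 rose under CuO, 3 under ZnO and 4 under NiO, and 0 fell (4, 4 and 4 higher and 0, 1 and 1 lower at an unadjusted p under 0.05), where 11.4%, 13.8% and 10.1% of all genes rose and 13.7%, 11.9% and 12.1% fell. An unadjusted p under 0.05 was found for 40.2%, 39.3% and 36.6% of all genes, in either direction. Their median difference was 0.42, 0.48 and 0.75, against 0.42, 0.32 and 0.27 for all genes. Probes of a gene disagreed here as well. The ligase gene fbxw11b was not called by the probe used, but another of its probes, well above background on 12 arrays, fell, with differences of -1.18, -1.097 and -1.204 (limma adjusted p over all probes = 0.0310, 0.0424 and 0.0342). The kinase gene csnk1e, whose product phosphorylates Per proteins, was at -0.13, 0.27 and -0.10 on the controls, 2.01, 1.94 and 1.22 under CuO, 2.36, 2.502 and 1.87 under ZnO, and 1.49, 1.84 and 1.65 under NiO. It rose by 1.71, 2.23 and 1.65 (SE 0.30; limma adjusted p = 0.00386, 0.00196 and 0.00702), and all 3 calls held with each array left out. The ubiquitin ligase gene fbxl3a, whose mammalian counterpart marks Cry proteins for degradation, rose by 1.36 under CuO and 1.33 under NiO, and both calls held with each array left out. The deubiquitinase gene usp2a, whose mammalian counterpart acts on clock proteins, rose by 1.11, 1.24 and 1.61, and its NiO call held. The CuO call of usp2a was lost without control 2 (1.09), control 3 (0.93), CuO 1 (1.16), CuO 2 (1.01) or CuO 3 (1.17), and its ZnO call without control 3 (1.06), ZnO 1 (1.11) or ZnO 3 (1.18). The kinase gene csnk1da rose by 1.26 under ZnO, a call lost without control 3 (0.96), ZnO 1 (1.21) or ZnO 2 (1.01), and by 1.46 under NiO, a call lost without control 3 (1.17) or NiO 3 (1.39). A second probe of csnk1da, also well above background on 12 arrays, lay the other way at -1.21, -1.13 and -0.27 under CuO, ZnO and NiO and was not called. Of the clock output genes 4 of 11 were tested and 0 were called under any single particle (0, 1 and 0 higher and 0, 1 and 1 lower at an unadjusted p under 0.05). Among them ddb2, a DNA repair gene, differed by -0.56, -0.70 and -0.70 by the probe used, but its second probe, well above background on 12 arrays, fell, with differences of -3.61, -4.19 and -3.31 (limma adjusted p over all probes = 0.0101, 0.00592 and 0.0187).

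Glucocorticoids are known to reset peripheral clocks, so 13 genes that respond to them were counted as well. Of these 2 rose under CuO, 3 under ZnO and 5 under NiO, and 1 fell under CuO (5, 6 and 6 higher and 2, 1 and 0 lower at an unadjusted p under 0.05), where 11.4%, 13.8% and 10.1% of all genes rose and 13.7%, 11.9% and 12.1% fell. An unadjusted p under 0.05 was found for 40.2%, 39.3% and 36.6% of all genes, in either direction. The median difference of the 13 genes was 0.94, 1.12 and 1.17, against 0.42, 0.32 and 0.27 for all genes. The forkhead factor gene foxo3b rose under all 3 particles (1.56, 1.72 and 1.74) and the kinase gene sgk2b rose under NiO (3.24), and these 4 calls held with each array left out. The NiO call of foxo3a (1.17) held there too, but its 2 other tested probes differed by -0.36 and -2.15 under NiO, and the latter fell (limma adjusted p over all probes = 0.0390), so the direction of foxo3a depended on the probe. The rises of foxo3a under CuO (0.94) and ZnO (0.71), of cebpd under ZnO (1.48) and NiO (1.46) and of tsc22d3 under NiO (1.95), and the fall of ddit4 under CuO (-2.08), were lost in 2, 10, 4, 4, 7 and 8 of the 12 fits that left out 1 array, control 3 among the arrays concerned each time. Their values in those 12 fits ran from 0.89 to 0.99, 0.59 to 0.84, 1.19 to 1.97, 1.17 to 1.95, 1.47 to 2.62 and -2.60 to -1.79. With the slide as a block the ZnO difference of foxo3a was 0.71 (limma adjusted p = 0.0746). The other probes of cebpd differed by 1.63 and 1.63 under ZnO and by 1.91 and 1.91 under NiO. They were not called (limma adjusted p over all probes = 0.316 and 0.325 under ZnO, 0.249 and 0.256 under NiO).

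Several clock genes had more than 1 probe, and the probes did not always move alike. The second tested probe of nr1d2b differed by 0.67, 0.00 and 0.99 under CuO, ZnO and NiO and was not called, and correlations between probes of nr1d2b over the 12 arrays ran from -0.02 to 0.94. With the mean of its probes, nr1d2b was no longer called: its differences were 1.00, 0.57 and 1.04 (limma adjusted p = 0.0931, 0.342 and 0.0923). The second probe of nr1d1 was well above background on 4 of 12 arrays, was not tested, and correlated with the first at r = 0.766. Probes correlated at 0.837 for per1a, -0.071 for per1b, 0.770 for per2 and 0.144 for per3. All 7 further probes of the clock genes were highest on NiO 2, as were 18.4% of all 42488 probes with a value on every array and 23.0% of 16743 probes with a mean level under -4.

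**Figure D4:**
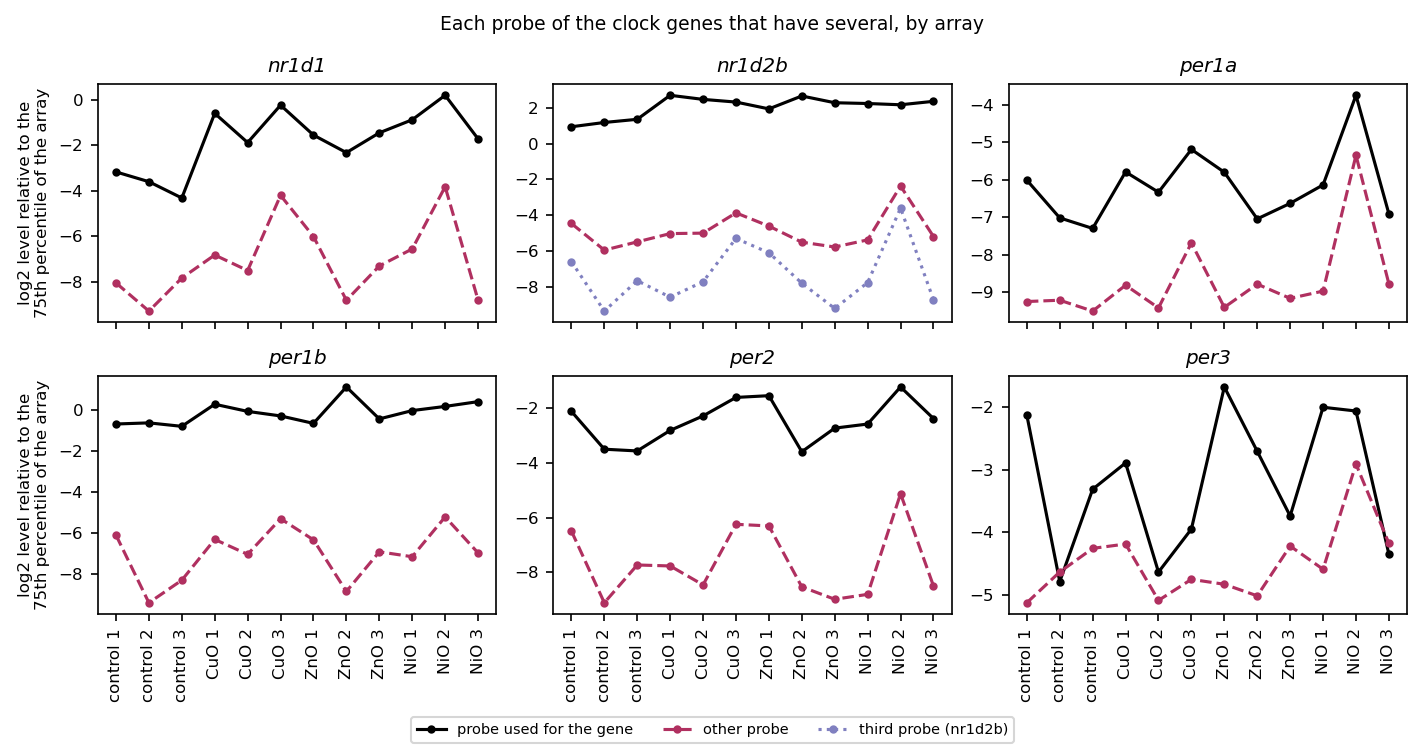
Level of each probe (y axis, log2 less the array's 75th percentile) of the 6 clock genes with several probes on each of the 12 arrays (x axis); the solid line is the probe used for the gene and broken lines are its other probes. Broken lines peak on NiO 2 in all 6 genes, and the main probe of nr1d2b does not.

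The oocyte markers moved with the exposures. Of 21 tested, 17 fell under CuO, 18 under ZnO and 16 under NiO, where 13.7%, 11.9% and 12.1% of all genes fell. All 21 were well above background on some array. Over the 12 arrays, which share groups and depth, the levels of nr1d1, nr1d2b, hlfb, clocka and per1b correlated with the mean of these markers at r = -0.64, -0.83, -0.65, -0.51 and -0.56, cry1a at -0.78 and csnk1e at -0.92. For per1a, per2 and per3 r was -0.27, -0.35 and -0.015. For bmal2 and cry5, which were lower on the exposed arrays, r was 0.77 and 0.73. NiO 1 was the 1 exposed array with a high median of the oocyte markers (2.37), though below the 3.91 to 3.99 of the controls. On NiO 1 nr1d1 was at -0.89, nr1d2b at 2.24 and cry1a at 0.96, above all 3 controls. There clocka (-4.70), per1b (-0.04), hlfb (-6.61) and per3 (-1.999) also lay above all 3, the last 2 close to control 1 (-6.86 and -2.12). Among the controls lay per1a (-6.14) and per2 (-2.57). These are values of 1 array, and the part of oocyte RNA in them was not tested. With the oocyte mean as a covariate limma called 0 of 8 clock genes in any comparison, and 0 of all genes under CuO, ZnO or NiO (622, 302 and 819 genes at an unadjusted p under 0.05, with nr1d1 among them under CuO and NiO). Apart from NiO 1, the markers were high on controls and low on exposed arrays. This fit could thus hardly separate them from exposure, and its standard errors were larger. Within groups the median of the markers varied most under NiO (2.37, -3.99 and -4.75), so the fit leaned on 1 array, NiO 1. No conclusion is drawn from its lack of calls or from the sizes and signs of its differences, which are descriptions. In that fit the differences of nr1d1 were 3.03 ± 1.28, 2.20 ± 1.44 and 3.08 ± 1.03 (SE) under CuO, ZnO and NiO, and those of nr1d2b 1.23 ± 0.59, 1.01 ± 0.66 and 1.02 ± 0.47, beside 2.79, 1.92 and 2.89 and 1.34, 1.13 and 1.097 without the covariate. The differences of hlfb went from 1.90, 1.78 and 3.15 to -1.12 ± 1.34, -1.74 ± 1.52 and 0.90 ± 1.09, so its sign turned under CuO and ZnO. Those of clocka were 2.11, 1.46 and 1.31, and those of per1b 0.13, 0.075 and 0.48, with standard errors of 0.75 to 1.21. For cry1a they were 1.64, 1.205 and 1.23 and for csnk1e 1.08, 1.498 and 1.18, each smaller than without the covariate. Those of bmal2 were -0.97, -1.34 and -1.19 and those of cry5 -0.45, -0.30 and -0.76, each also smaller in size than without it. The part of oocyte RNA in the lower levels of bmal2 and cry5 was not tested.

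**Figure D5:**
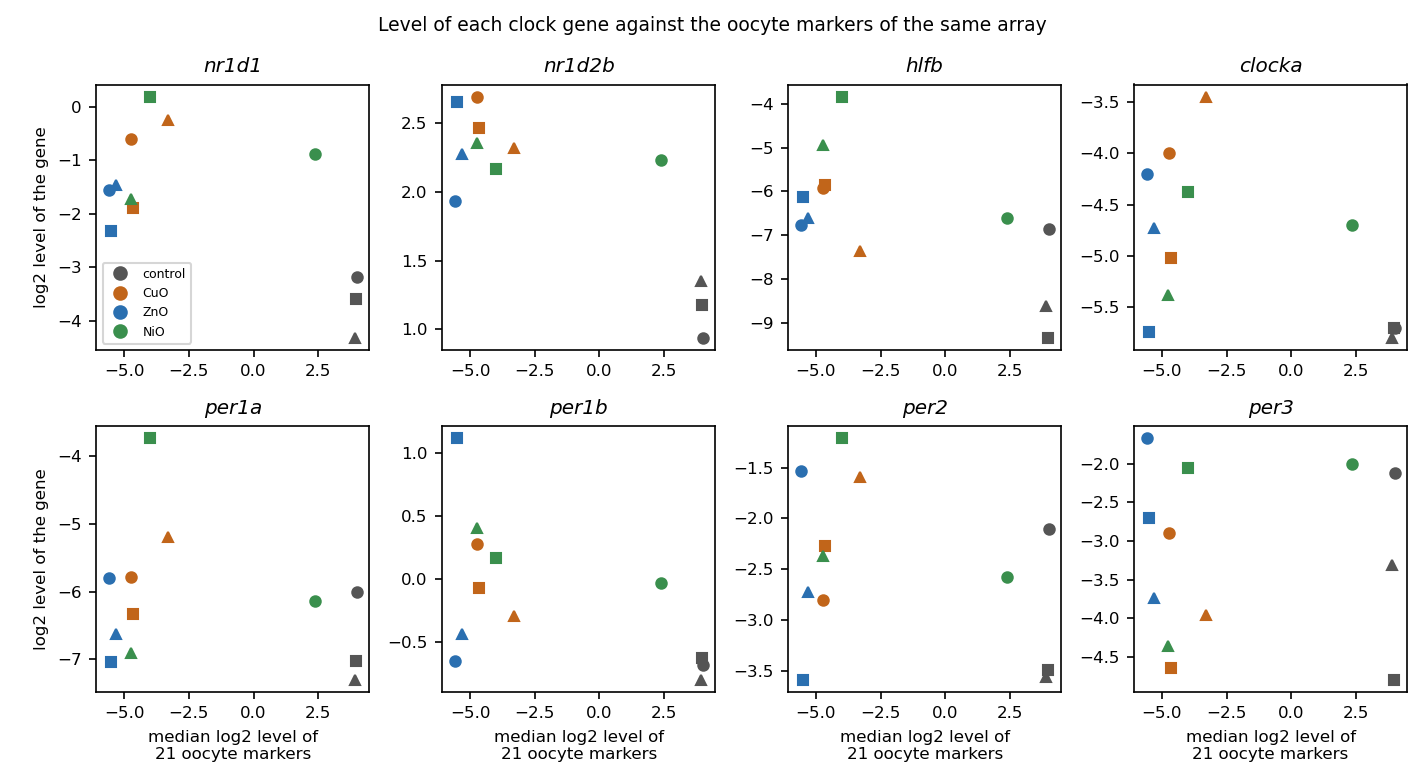
Level of each clock gene (y axis, log2) against the median log2 level of 21 oocyte markers (x axis) on the same array, with colours for groups and circles, squares and triangles for replicates 1, 2 and 3. The NiO circle with oocyte markers at 2.37 lies with the other exposed arrays for nr1d1 and nr1d2b, and within the range of the controls for per1a and per2.

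The eye markers did not separate the groups, since 1 array of each group was low. In every group per1b, bmal1a, cry1a, rorab, roraa and dbpa were lower on that array than on the mean of the others. Higher in every group were bmal1b, cry1b, cry3b, cry4, cry5, nr1d2a, hlfa and tefb. Among the clock and glucocorticoid genes tested, no others kept 1 direction in all groups. Of all genes 13.2% were lower and 10.6% higher on the low array in all 4 groups, so many genes did so and no link to eye RNA is drawn. Without these 4 arrays nr1d1 rose under CuO (2.14) and nr1d2b under CuO (1.52) and ZnO (1.41), and these were the only calls among the 8 genes. There nr1d1 differed by 1.495 under ZnO and 2.08 under NiO, and nr1d2b by 1.24 under NiO, where 5 of all genes were called. Pituitary and brain markers, 17 tested, had medians from -3.91 to -1.501 on the controls and from -3.20 to 0.57 on exposed arrays, and 4, 2 and 2 of them rose under CuO, ZnO and NiO. Within this list tshba, lhb, sypa and prl passed the filter on low signals only through exposed groups where they were higher. The medians and counts that hold them are therefore descriptions. Of all genes 11.4%, 13.8% and 10.1% rose, so the ZnO and NiO counts lay near that share. Of these markers fshb, a gonadotropin subunit gene, fell under ZnO, where 0 of 3 arrays were well above background. It passed the filter on low signals only through the controls, where its mean was highest, so this fall is a description. Of 5 pineal and melatonin markers 0, 2 and 1 rose. On ZnO 1 liver and pancreas medians were low (-2.75 and -1.46), against 2.44 to 4.67 and 2.53 to 4.89 on the others, and 1 of 10 liver and 3 of 11 pancreas markers fell under ZnO, where 11.9% of all genes fell. The part of these tissues in the differences of the clock genes was not tested.

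The dimmest probes also differed between arrays. The median of 1907 probes that were at background on every array ran from -9.43 on control 3 to -8.44 on NiO 2, and hlfb and per1b correlated with it at r = 0.757 and 0.782 over the 12 arrays. With this level as a covariate, an alternative chosen after seeing the data, nr1d1 (2.54) and nr1d2b (1.22) were called under CuO, and limma called 0 of the 8 genes under ZnO and NiO (2 and 1 at an unadjusted p under 0.05). Of all genes this fit called 1882 under CuO, 1359 under ZnO and only 1 under NiO (3958, 3689 and 1405 at an unadjusted p under 0.05). The lack of calls under NiO was thus not particular to the 8 genes. Under ZnO and NiO the differences of nr1d1 were then 1.62 and 2.26, and those of nr1d2b 0.998 and 0.81.

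The 3 particles were compared with each other directly. For all 8 clock genes the 3 pairs of exposures gave 0 calls, and limma called 0 of 12616 genes in each pair (0.00%; 1252 genes for CuO against ZnO, 784 for CuO against NiO and 620 for ZnO against NiO had an unadjusted p under 0.05, with 0 of the 8 among them). For nr1d1 the difference was 0.87 (95% interval -0.40 to 2.14) for CuO minus ZnO and -0.98 (-2.25 to 0.30) for ZnO minus NiO. For nr1d2b it was 0.20 (-0.38 to 0.78) and 0.04 (-0.54 to 0.61), and for hlfb, CuO minus NiO was -1.25 (-2.99 to 0.50). The comparisons with control share the same 3 control pools.

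Over the 12 arrays the levels of nr1d1 and clocka correlated at r = 0.847, per1a and per2 at 0.836, and nr1d2b and per1b at 0.754, while per1b and per2 correlated at -0.124. After subtraction of the group means these pairs were at 0.827, 0.786, 0.786 and -0.602. The levels of nr1d1 and nr1d2b correlated at 0.704, but at -0.522 after that subtraction, and nr1d2b and per2 were then at -0.906. Among all genes tested, those most like nr1d1 over the 12 arrays were hyal1 (r = 0.958), cyyr1 (0.950) and zdhhc17 (0.946), and those most like nr1d2b were puraa (0.972), dgkaa (0.970) and tmem30c (0.966). For hlfb they were jag1a (0.932), tp63 (0.914) and pald1b (0.898), and for clocka cdkn1ba (0.948), fgfr4 (0.921) and fbxo6.2 (0.921). For the per genes the closest were rtkna for per1a (0.966), htt for per1b (0.958), cdc42bpb for per2 (0.968) and pcbp3 for per3 (0.865). After subtraction of the group means the closest were angptl1a for nr1d1 (0.960), borcs6 for nr1d2b (0.970), ampd1 for hlfb (0.905), tuft1b for per1a (0.980), leng8 for per1b (0.983), chchd6a for per2 (0.992), fam167aa for per3 (0.961) and eri2 for clocka (0.981). No clock gene was the closest to another by either measure. The closest genes were picked for high r from all genes tested over only 12 arrays, so their r values are descriptions.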

How the data were processed

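Gill RNA of 12 pools was labelled with cyanine 3 and hybridised to Agilent zebrafish arrays, per the labels' protocols. A dye swap is mentioned there, yet every scanner file has 1 channel. Per the file headers, Feature Extraction 11.5.1.1 wrote the deposited processed signal, a background-subtracted intensity per spot. MAS5 is listed in the submitters' processing notes; its role and version are not stated. The authors' table of the whole series repeats this intensity, averaged per probe and unscaled. Its columns were equal within 0.1% to a scanner file for at least 99.9% of probes, but 10 of 12 to a file linked to another sample. The link of scanner files to samples was taken as given and could not be checked.

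Groups come from the labels. Control and outlier spots were left out and spots of a probe averaged, 0 spots were saturated, and log2 of the deposited intensity minus the 75th percentile of the array was analysed. A probe was tested if well above background on all 3 arrays of a group and a gene if every group had at least 2 values. Of 43603 probes, 26094 matched 1 gene symbol, 0 several and 17509 none, through accessions in the GRCz12tu annotation. The array is annotated on danRer7, so no coordinates are given. Sequences are not used here.

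All 4 groups entered 1 limma 3.58.1 fit (R 4.3.3), with Benjamini-Hochberg adjustment within each contrast over 12616 genes. The fit was tested on simulated data. Each pool is a separate set of fish, and the p-values rest on how much pools differ. Replicate numbers name the slide and pair the arrays by that. Deviations of same-numbered arrays from their group means correlated at -0.58 to 0.48 (median 0.013, 18 pairs). The fit with the slide as a block is given where it changes a call.

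The 8 genes, the clock, phase, glucocorticoid and marker lists and the rule for named genes were chosen with earlier results of these data known. Named were the 8 genes, the called genes of each clock and glucocorticoid list (at most 6), each bmal and cry gene, and the 3 genes most like each of the 8, of which some are given. The marker genes, fbxw11b and ddb2 were picked for naming after their values were seen. Alternatives were normexp on the median signal with an offset of 50 (the planned mean signal was not used), quantile normalization, percentiles of detected probes, ribosomal centring, no filter, the mean of probes, array weights, covariates, blocks and arrays left out.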

Additional observations from a re-analysis of the deposited data

How the results depend on the processing

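Counts of the 8 clock genes called (3 under CuO, 2 under ZnO, 3 under NiO, 3 in the mean of exposures and 2 by the F test) stayed within 1.5 times of these with normexp, quantile normalization, no filter on low signals and the eye mean as a covariate. The ZnO count was 1 with the percentile over detected probes, with ribosomal centring, with the mean of probes, with the replicate block, without the 4 arrays low in eye transcripts and in a fit of only the groups compared. That last fit gave 1 for NiO. Without the low-eye arrays NiO and the F test gave 0, the mean of probes gave 1 by the F test, and array weights gave 5 in the mean of exposures. The oocyte covariate, which nearly followed control against exposed, gave 0 throughout. The covariate of dim probes, added after seeing the data, gave 0 for ZnO, NiO, the mean of exposures and the F test, and under NiO it called only 1 of all genes. With 1 array left out the counts ran from 2 to 3 for CuO, 1 to 2 for ZnO, 1 to 4 for NiO, 2 to 4 for the mean of exposures and 0 to 3 for the F test. The pairs of exposures gave 0 under every alternative run. The replicate block moved 7 differences of named genes across the threshold, those given in the report and nfil3-6 (1.27), tsc22d3 (1.70) and sgk2b (1.21) under ZnO, which were called with it.

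The deposited series table, read by its column names, gave 0 calls of these genes against control and reversed the sign of 12 called differences: nr1d1 under CuO (-0.31) and ZnO (-0.34), clocka under CuO (-0.48), cry1a (-0.15), nfil3 (-0.13), csnk1da (-0.013) and foxo3a (-0.0277) under ZnO, csnk1e (-0.15) and fbxl3a (-0.00165) under CuO, usp2a under CuO (-0.0565) and ZnO (-0.0842), and ddit4 under CuO (1.08). By the scanner files' links to samples, which were taken as given, 10 of its 12 columns hold another sample's array, so the calls here rest on those links. The mean of probes reversed foxo3a under NiO (-0.44). Of 2808 values of 108 differences under the alternatives, 2330 kept direction and side of the threshold, 101 had the other sign and were called neither there nor as reported, 300 fell short of the threshold, 64 newly passed it and 13 reversed.

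Over all genes, 45.5%, 53.5% and 45.6% of calls under CuO, ZnO and NiO were rises. With ribosomal centring, which lowered the median gene from 0.42, 0.32 and 0.27 to 0.13, 0.04 and 0.10, these shares were 24.5%, 33.1% and 36.0%, and with the percentile over detected probes 42.2%, 42.1% and 42.5%. The 3 arrays per group and, for hlfb and bmal2, signal near background limit what could be called.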
